A study of Mus musculus with 8 samples.

Results

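Heat shock chaperones are the proteins that bind unfolded polypeptides, keep them from aggregating and help them fold. The 10 genes described here were chosen by symbol, with earlier results of these data known. They are *Hspa1a*, *Hspa1b*, *Hsph1*, *Dnajb1*, *Hspa8*, *Hsp90aa1*, *Hsp90ab1*, *Hspa5*, *Hspd1* and *Hspe1*. They were taken from the 54532 genes of a bulk RNA-seq count table, and all 10 were among the 17998 genes that passed the filter on low counts. The table holds 4 *Mettl3*-CKO retinal samples, which are Six3-Cre+; Mettl3 floxed/floxed, and 4 samples from control littermates, whose own alleles are given only as Control. The labels give the age as postnatal day 7 and the methods of the study as p6. *Mettl3* encodes the catalytic subunit of the enzyme complex that writes N6-methyladenosine (m6A) on mRNA, and the comparison asks which retinal RNAs change when it is deleted.

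In this model Cre is expressed in retinal progenitor cells under *Six3* control. The study showed loss of METTL3 protein in the central retina by staining, and lower m6A on several candidate transcripts by qPCR after m6A pull-down. RNA for the counts came from retinas not divided by region. The RNA of *Mettl3* itself was at 21.1, 29.6, 21.3 and 24.3 CPM (counts divided by the TMM-scaled library size) in Mettl3-CKO 1 to 4 and at 33.8, 32.5, 29.4 and 29.3 CPM in Control 1 to 4. It was lower by a log2 fold change of -0.38 ± 0.12 (SE, n = 4 per group), which did not pass the threshold of 0.05 (adjusted p = 0.0602, edgeR quasi-likelihood test with Benjamini-Hochberg adjustment over all genes tested). The groups touch, since Mettl3-CKO 2 lay above Control 3 and Control 4. The labels do not say whether the samples came from separate animals, so p-values measure the spread between these samples.

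Chaperone biology sorts the 10 genes by compartment and by role. HSP70 proteins bind short hydrophobic stretches in a cycle of ATP hydrolysis, in which an HSP40 partner starts hydrolysis and a nucleotide exchange factor releases ADP and the client. HSP90 proteins act later on kinases, receptors and other clients, and the HSP60 and HSP10 chaperonin encloses proteins in the mitochondrial matrix. Heat shock factor 1 (HSF1) drives the cytosolic set after heat or proteotoxic stress, while the endoplasmic reticulum member answers to the unfolded protein response. Photoreceptors make large amounts of membrane protein, and protein folding is studied in the retina because misfolded rhodopsin causes retinal degeneration.

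Total counts ranged from 16227095 to 20281517 per sample. Control 1 and Control 4 stood apart from the other controls. Control 1 had the highest level among controls for 6 of the 10 chaperone genes, and 2.38% of its counts were mitochondrial, against 1.69% to 1.76% in the other controls and 1.77% to 2.26% in *Mettl3*-CKO. Control 4 had the lowest level among controls for 5 of the 10 genes, and its 18 lens genes summed to 6285 CPM, against 110 CPM in Control 1 and 7.28 to 29.5 CPM in the other 6 samples. Marker RNA of several cell types also differed with genotype. The summed level of 6 rod genes was 1255 to 2336 CPM in *Mettl3*-CKO and 2469 to 3527 CPM in controls, with 5 of the 6 genes lower, and that of 8 progenitor and cell cycle genes was 2838 to 3885 CPM in *Mettl3*-CKO and 1958 to 2738 CPM in controls, with 3 of the 8 higher. Of 9 tested endothelial genes 7 were lower, with a summed level of 537 to 641 CPM in *Mettl3*-CKO and 553 to 654 CPM in controls, most of it *Kdr*. Of 3 tested erythrocyte genes 2 were lower (4.28 to 7.25 CPM against 13.99 to 26.3 CPM), as were 2 of 6 retinal pigment epithelium genes (21.5 to 28.8 CPM against 34.96 to 45.7 CPM) and 1 of 4 astrocyte genes, *Gfap* (17.8 to 32.6 CPM against 30.3 to 77.6 CPM for the list). Of 6 tested Müller glia genes *Rlbp1* was lower (-1.28, adjusted p = 0.00305, edgeR) and *Glul* higher (0.43, adjusted p = 0.00865). Single genes of other lists were also called lower, namely *Slc6a9* (amacrine, -0.80), *Prkca* (bipolar, -0.44) and *Pde6h* (cone, -0.69). *Onecut2* (horizontal, 0.58) and *Pou4f1* (ganglion, 0.55) were called higher, and 0 of 6 microglia genes were called. No marker of these lists was at 0 counts in all samples. The part of these differences in the chaperone values was not tested, and in bulk RNA fewer cells of a type and less RNA per cell cannot be told apart.

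*Hsph1* rose in *Mettl3*-CKO retinas. All 10 fitted log2 fold changes were above 0, where 48.2% of all genes tested were, and the median of the 10 was 0.27 against -0.01 over all genes. The genes share libraries and most deviate together by sample, so the 10 signs are not 10 separate observations. The shared direction carries no test, and the sign of *Hsp90aa1* (0.04) reversed without Control 3 or without Control 4. *Hsph1* was the 1 of 10 genes called higher, where 6.49% of all genes were called higher, 4.05% lower and 10.5% in either direction. No chaperone gene was called lower by edgeR, with 0 also at an unadjusted p under 0.05, by DESeq2 and by limma voom. At an unadjusted p under 0.05, 4 of the 10 were higher (*Hsph1*, *Hsp90ab1*, *Hspd1* and *Hspa5*), where 13.5% of all genes were. The groups did not overlap for *Hsph1* and *Hsp90ab1*, 2 of 10 genes, where 9.77% of all genes were higher without overlap. Together the 10 genes took 0.381% to 0.463% of the counts in *Mettl3*-CKO samples and 0.310% to 0.415% in controls.

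**Figure D1:**
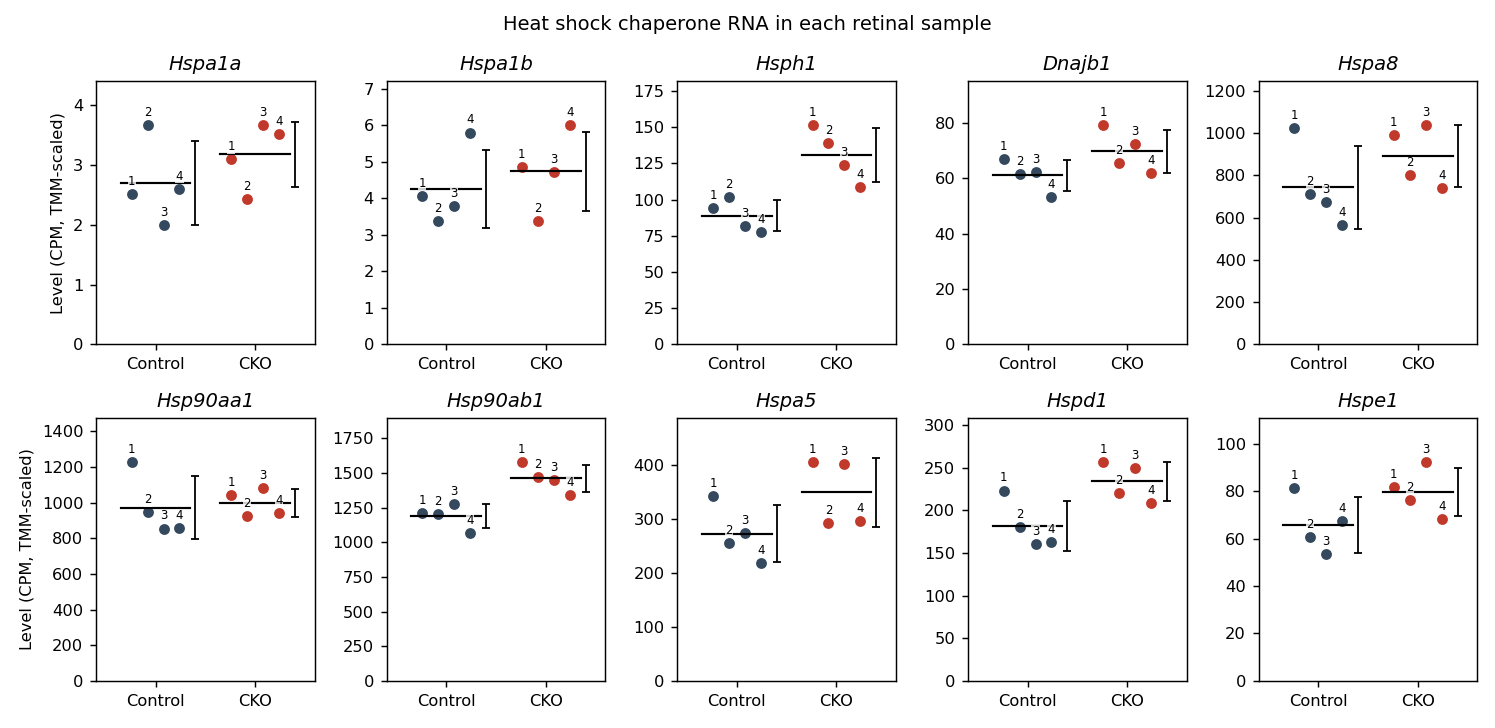
Level of each chaperone gene in CPM (TMM-scaled) in the 4 control and 4 Mettl3-CKO (CKO) samples. Numbers at the points are replicate numbers, horizontal lines are means and bars are SD. The groups are apart for Hsph1 and Hsp90ab1, and Control 1 lies above the other controls for Hspa8, Hsp90aa1, Hspa5, Hspd1, Hspe1 and Dnajb1.

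The levels of the genes spanned a wide range, compared here as FPKM, which divides by gene length. *Hsp90ab1* had the highest mean in controls, 395 FPKM, and ranked 34 among all genes. It was followed by *Hsp90aa1* at 245 FPKM (rank 83) and *Hspa8* at 171 FPKM (rank 158). *Hspd1* was at 68.2 FPKM, *Hspa5* at 64.1 FPKM and *Hspe1* at 44.3 FPKM. The co-chaperones were lower, with *Dnajb1* at 18.9 FPKM and *Hsph1* at 12.2 FPKM. The strictly stress-inducible pair came last, *Hspa1b* at 1.51 FPKM and *Hspa1a* at 0.905 FPKM. The control ranges overlapped between neighbours for *Hsp90aa1* and *Hspa8*, *Hspd1* and *Hspa5*, *Hspa5* and *Hspe1*, and *Hspa1b* and *Hspa1a*. By this measure *Hsp90ab1* was above *Hsp90aa1*, and *Hsp90aa1* above *Hspa8*, within every one of the 8 samples. The order between genes rests on the gene lengths used, 2999 bases for *Hsp90ab1*, 3931 for *Hsp90aa1* and 4301 for *Hspa8*. Lengths of single transcripts could change it, and they were not tried. *Dnajb1* and *Hsph1* were separate in controls and overlapped in *Mettl3*-CKO.

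**Figure D2:**
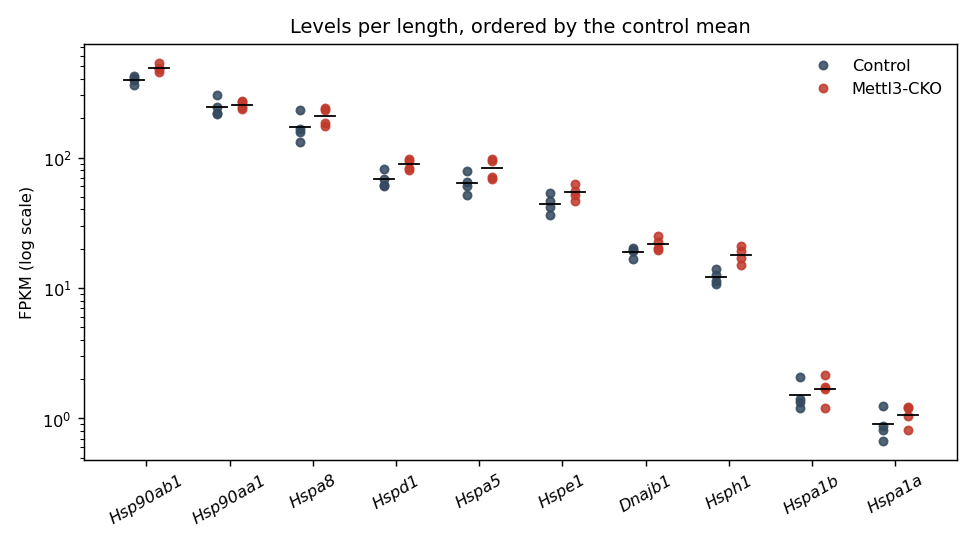
FPKM of each chaperone gene on a log scale, ordered by the control mean, with 1 point per sample and a line at each group mean. The constitutive HSP90 gene Hsp90ab1 is at the top with a control mean of 395 FPKM, and the stress-inducible Hspa1b and Hspa1a are at the bottom with 1.51 and 0.905 FPKM.

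*Hspa1a* and *Hspa1b* encode nearly identical HSP70 proteins that most cells make in quantity only after stress. Both are single-exon genes on the minus strand of chromosome 17 (GRCm38), *Hspa1b* at chr17:34956436-34959238 and *Hspa1a* at chr17:34969190-34972156, separated by 9951 bases. Their coding sequences were 99.4% identical, and 38.1% of the 150-base windows of *Hspa1a* and 40.5% of those of *Hspa1b* occur in the other gene, so reads can be placed on either and the split between them is uncertain. The 250 bases upstream of their start sites are shown because they show how alike the control regions of the pair are. They are taken from RefSeq on GRCm38.p6, at chr17:34972157-34972406 for *Hspa1a* and chr17:34959239-34959488 for *Hspa1b* on the minus strand, read 5′ to 3′ towards the gene, where GENCODE vM21 has no gene. Capitals mark the bases that differ.
Hspa1a: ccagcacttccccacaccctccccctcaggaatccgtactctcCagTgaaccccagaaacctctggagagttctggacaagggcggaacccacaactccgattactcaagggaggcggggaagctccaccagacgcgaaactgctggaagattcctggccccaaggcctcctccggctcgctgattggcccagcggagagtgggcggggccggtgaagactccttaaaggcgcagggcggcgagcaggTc
Hspa1b: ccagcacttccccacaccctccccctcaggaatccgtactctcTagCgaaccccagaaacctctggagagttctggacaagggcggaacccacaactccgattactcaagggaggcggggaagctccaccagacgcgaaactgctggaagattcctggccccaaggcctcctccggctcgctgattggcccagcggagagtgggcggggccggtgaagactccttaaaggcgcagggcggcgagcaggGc
The sequences are identical at 247 of 250 positions (98.8%) and differ at 207, 204 and 2 bases upstream of the start site.

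A heat shock element is the HSF1 motif, made of repeated GAA units in alternating orientation. The 2-unit form, GAANNTTC or TTCNNGAA, was searched on both strands and lies 104 to 97 bases upstream of both genes. It is found in 12.8% of all 32851 promoter windows of this length. Promoter windows were found for 7 of the 10 chaperone genes, 10 windows in all. Of these windows 6 held this form, from 5 genes (*Hspa1a*, *Hspa1b*, *Hsph1*, *Hspd1* and *Hspe1*). The windows of *Hspa1a* and *Hspa1b* are near copies, and *Hspd1* and *Hspe1* share 1 stretch, so the matches are not separate occurrences. A match of letters is a description and not a bound site.

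Both genes had few reads, 38 to 72 counts per sample for *Hspa1a* and 55 to 123 counts for *Hspa1b*. *Hspa1a* was at 3.10, 2.44, 3.67 and 3.52 CPM in Mettl3-CKO 1 to 4 and at 2.51, 3.67, 1.99 and 2.60 CPM in Control 1 to 4. *Hspa1b* was at 4.87, 3.36, 4.73 and 6.01 CPM in Mettl3-CKO 1 to 4 and at 4.07, 3.37, 3.78 and 5.80 CPM in Control 1 to 4. The groups overlapped for both, with Control 2 the highest sample for *Hspa1a* and Mettl3-CKO 4 for *Hspa1b*. The log2 fold changes were 0.25 ± 0.23 (SE, adjusted p = 0.567) and 0.16 ± 0.22 (adjusted p = 0.709) in edgeR, and their 95% intervals reached from -0.25 to 0.75 and from -0.31 to 0.64. Leaving out 1 sample moved *Hspa1a* between 0.13 (without Control 3) and 0.43 (without Control 2), and *Hspa1b* between 0.03 (without Mettl3-CKO 4) and 0.34 (without Control 4). To set aside the split of reads, the counts of both were summed, which gave 7.92 ± 1.56 CPM (SD, n = 4) in *Mettl3*-CKO and 6.95 ± 1.10 CPM in controls. The difference was 0.18 on the log2 scale (two-sided exact permutation test, p = 0.429, where 4 against 4 samples can reach 0.0286), and it ranged from 0.08 without Mettl3-CKO 4 to 0.32 without Mettl3-CKO 2. The methods of the study do not say how reads that match both genes were counted. If such reads were left out, the sum does not restore them and the levels of both genes are too low.

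*Hsph1* encodes HSP110, a large relative of HSP70 that acts as its nucleotide exchange factor and takes part in dissolving aggregates. The gene lies on the minus strand at chr5:149614287-149636376 and has 19 exons. A 2-unit heat shock element near its start is shown because *Hsph1* was the member called, in capitals within 30 bases at chr5:149636351-149636380 on the minus strand, 54 to 47 bases upstream of one RefSeq start site and 33 to 26 bases upstream of another, and overlapping non-coding exon sequence of 2 *Hsph1* transcripts in vM21.
Hsph1: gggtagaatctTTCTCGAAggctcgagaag

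*Hsph1* was at 152, 139, 124 and 109 CPM in Mettl3-CKO 1 to 4 and at 94.1, 101, 82.0 and 77.7 CPM in Control 1 to 4. Every *Mettl3*-CKO sample lay above every control, with Mettl3-CKO 4 nearest to Control 2. On average this was 131 ± 18.5 CPM (SD, n = 4) against 88.8 ± 10.9 CPM, a 1.47-fold difference. The log2 fold change was 0.56 ± 0.12 (SE, 95% interval 0.31 to 0.81) with an adjusted p of 0.0111 in edgeR. It was 0.59 without Control 1, 0.50 without Control 4 and 0.51 without both, and the call held in each of these fits. Without Mettl3-CKO 1, the sample with the highest value, it was 0.49 and no longer passed (adjusted p = 0.0509 in edgeR).

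*Dnajb1* encodes the HSP40 that hands clients to cytosolic HSP70 and starts ATP hydrolysis, and it lies at chr8:83608193-83612653 on the plus strand. *Dnajb1* RNA stood at 79.3, 65.3, 72.5 and 61.9 CPM in Mettl3-CKO 1 to 4 and at 66.9, 61.7, 62.3 and 53.3 CPM in Control 1 to 4. The groups overlapped, with Mettl3-CKO 4 below Control 3 and only Mettl3-CKO 1 and 3 above all controls. The log2 fold change was 0.19 ± 0.10 (SE, adjusted p = 0.277, edgeR) with a 95% interval of -0.03 to 0.41.

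*Hspa8* encodes HSC70, the HSP70 that cells make at all times and that also uncoats clathrin vesicles at synapses. It lies at chr9:40800984-40810087 on the plus strand and has 9 exons. *Hspa8* RNA stood at 991, 799.7, 1039 and 738 CPM in Mettl3-CKO 1 to 4 and at 1024.5, 711, 673 and 564 CPM in Control 1 to 4. Control 1 was close to the highest *Mettl3*-CKO sample, while the other 3 controls lay below all 4 *Mettl3*-CKO samples. With all samples the log2 fold change was 0.26 ± 0.17 (SE, adjusted p = 0.369, edgeR). Without Control 1 it was 0.46 and passed (adjusted p = 0.0160, edgeR). Without both Control 1 and Control 4 it was 0.36 and did not pass (adjusted p = 0.0830). It was 0.15 without Control 4 and 0.22 without Mettl3-CKO 1 (adjusted p = 0.605 for the latter).

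*Hsp90aa1* and *Hsp90ab1* encode the stress-inducible and the constitutive cytosolic HSP90. They lie on the minus strands of different chromosomes, at chr12:110690605-110702728 and chr17:45567775-45573271, and their coding sequences were 75.5% identical, with no 150-base window in common. *Hsp90ab1* was at 1583, 1473, 1450.4 and 1342 CPM in Mettl3-CKO 1 to 4 and at 1213, 1203, 1276 and 1068 CPM in Control 1 to 4. All 4 *Mettl3*-CKO samples lay above all 4 controls. The log2 fold change of *Hsp90ab1* was 0.30 ± 0.09 (SE, 95% interval 0.10 to 0.49), and the adjusted p of 0.0532 in edgeR missed the threshold. It was 0.31 without Control 1, which passed (adjusted p = 0.0262, edgeR), 0.25 without Control 4 (adjusted p = 0.126) and 0.24 without both (adjusted p = 0.114). The fit without Mettl3-CKO 1 gave 0.26 and did not pass (adjusted p = 0.152, edgeR).

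*Hsp90aa1* was at 1040.3, 922, 1082 and 943 CPM in Mettl3-CKO 1 to 4 and at 1229.5, 946, 854 and 858 CPM in Control 1 to 4. Control 1 was the highest of the 8 samples and the groups overlapped throughout. Its log2 fold change was 0.04 ± 0.12 (SE, adjusted p = 0.893, edgeR), with a 95% interval of -0.22 to 0.30. Leaving out Control 1 gave 0.17, and leaving out Control 3 or Control 4 gave -0.0133 and -0.0194, so its sign rests on single controls.

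A ratio within each sample does not depend on scaling, and 3 ratios between partner genes were compared. The CPM ratio of *Hsp90aa1* to *Hsp90ab1* was 0.657, 0.626, 0.746 and 0.702 in Mettl3-CKO 1 to 4 and 1.01, 0.786, 0.669 and 0.803 in Control 1 to 4. It was lower in *Mettl3*-CKO by -0.25 on the log2 scale, which did not pass (two-sided exact permutation test, p = 0.0857, 0.257 adjusted over 3 ratios), and Control 3 lay among the *Mettl3*-CKO samples. Without Control 1, the sample with the highest ratio, the difference was -0.14. The ratio of summed *Hspa1a* and *Hspa1b* to *Hspa8*, inducible to constitutive HSP70, differed by -0.10 on the log2 scale (exact permutation p = 0.743, adjusted 0.743) and by 0.11 without Control 4. The ratio of *Hspd1* to *Hspe1* differed by 0.09 (exact permutation p = 0.371, adjusted 0.557) and by 0.02 without Control 4.

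*Hspa5* encodes BiP, the HSP70 of the endoplasmic reticulum and a main target of the unfolded protein response, at chr2:34771970-34777547 on the plus strand. The endoplasmic reticulum stress element is bound by the factors of that response and has the letters CCAAT and CCACG separated by 9 free bases. It was searched on both strands and is found in 0.113% of the 32851 windows, and *Hspa5* was the 1 of the 7 chaperone genes searched that held it. It is shown in capitals because no other chaperone gene searched held it, at chr2:34772020-34772048 on the plus strand, 65 to 47 bases upstream of the RefSeq start site and within a non-coding exon of 1 *Hspa5* transcript in vM21.
Hspa5: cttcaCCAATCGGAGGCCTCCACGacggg
The CCAAT box alone is common, in 33.8% of all windows and in 6 of the 10 windows of the chaperone genes, from 5 genes.

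*Hspa5* RNA stood at 407, 292, 402 and 297 CPM in Mettl3-CKO 1 to 4 and at 344, 256, 274 and 219 CPM in Control 1 to 4. Mettl3-CKO 1 and 3 lay above all controls, while Mettl3-CKO 2 and 4 lay below Control 1. With all samples the log2 fold change of *Hspa5* was 0.36 ± 0.15 (SE, adjusted p = 0.155, edgeR). Without Control 1 it was 0.49 and passed (adjusted p = 0.0127, edgeR), and without both Control 1 and Control 4 it was 0.40 and did not (adjusted p = 0.0766). The fit without Mettl3-CKO 1 gave 0.28 and did not pass (adjusted p = 0.382, edgeR).

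*Hspd1* and *Hspe1* encode HSP60 and HSP10, the chamber and the lid of the mitochondrial chaperonin. They lie head to head on chromosome 1, *Hspd1* at chr1:55077835-55088243 on the minus strand and *Hspe1* at chr1:55088132-55091307 on the plus strand, and overlap by 112 bases, so reads from the overlap cannot be assigned without strand. The 3-unit heat shock element, GAANNTTCNNGAA or TTCNNGAANNTTC, is found in 0.466% of the 32851 windows, and these were the only chaperone genes of the 7 searched that held it. Both read it from the same stretch, chr1:55088053-55088082, between RefSeq start sites at 55087932 (*Hspd1*) and 55088148 (*Hspe1*), where vM21 has a non-coding exon of 1 *Hspd1* transcript. It is shown on each gene's own strand because it is 1 stretch of DNA lying upstream of both of these start sites. The stretch lies within the *Hspd1* bounds given above, and the 18 bases covered by overlapping matches are in capitals.
Hspd1: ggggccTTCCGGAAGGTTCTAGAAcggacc
Hspe1: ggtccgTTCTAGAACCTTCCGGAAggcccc
The capitals lie 144 to 127 bases upstream of this *Hspd1* start site and 89 to 72 bases upstream of the *Hspe1* start site.

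*Hspd1* was at 257, 221, 249.5 and 209 CPM in Mettl3-CKO 1 to 4 and at 223, 180.0, 161 and 162 CPM in Control 1 to 4. Only Control 1 reached into the *Mettl3*-CKO range. The log2 fold change of *Hspd1* was 0.37 ± 0.11 (SE, 95% interval 0.12 to 0.61, adjusted p = 0.0571, edgeR). It was 0.48 without Control 1 (adjusted p = 0.00159, edgeR) and 0.45 without both Control 1 and Control 4 (adjusted p = 0.0140), and both passed. The fit without Mettl3-CKO 1 gave 0.32 and did not pass (adjusted p = 0.172, edgeR).

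*Hspe1* was at 81.7, 76.4, 92.5 and 68.1 CPM in Mettl3-CKO 1 to 4 and at 81.3, 60.7, 53.7 and 67.5 CPM in Control 1 to 4. Control 1 again lay within the *Mettl3*-CKO range, and the other 3 controls lay below it. The log2 fold change of *Hspe1* was 0.28 ± 0.13 (SE, adjusted p = 0.215, edgeR), 0.40 without Control 1 (adjusted p = 0.0214) and 0.48 without both Control 1 and Control 4 (adjusted p = 0.0233). The fit without Mettl3-CKO 1 gave 0.27 and did not pass (adjusted p = 0.388, edgeR). Pseudogene copies carried little signal, with 672 counts over the 8 samples in 6 *Hspd1* pseudogene rows (2.22% of the counts of *Hspd1*) and 99 counts in 6 *Hspe1* rows (0.936%).

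**Figure D3:**
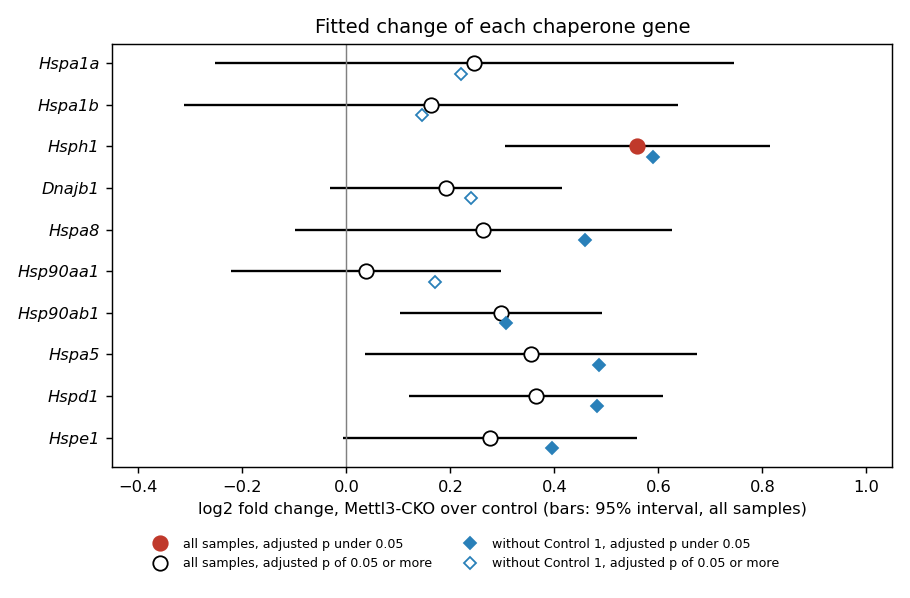
Fitted log2 fold change of each chaperone gene, Mettl3-CKO over control, from edgeR. Circles are fits with all samples with bars for the 95% interval, diamonds are fits without Control 1, and filled symbols have an adjusted p under 0.05. With all samples Hsph1 alone is filled, at 0.56, and without Control 1 the filled genes are Hsph1, Hspa8, Hsp90ab1, Hspa5, Hspd1 and Hspe1.

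How many chaperone genes were called depended on single samples. Without Control 1, the highest control for 6 of the 10, 6 were called higher in edgeR, where 10.3% of all genes were. Leaving out a gene's highest control raises its fitted change by construction. Without Mettl3-CKO 1, the highest of the 8 samples for 5 of the 10, 0 were called, where 2.78% of all genes were called higher. Without both Control 1 and Control 4, 3 were called higher (*Hsph1*, *Hspd1* and *Hspe1*), where 6.25% of all genes were. DESeq2, the tool named in the methods of the study, called 3 higher (*Hsph1*, *Hsp90ab1* and *Hspd1*), where it called 8.20% of all genes higher. Limma voom with sample quality weights called 6, the same genes as edgeR without Control 1, where it called 11.9% of all genes higher. With library totals in place of TMM edgeR called 3 (*Hsph1*, *Hsp90ab1* and *Hspd1*), against 6.90% of all genes, and with no filter on low counts 3 (*Hsph1*, *Hspd1* and *Hspa5*), against 3.86%. *Hsph1* was called in 16 of 17 fits, in which its log2 fold change ranged from 0.49 to 0.64.

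The samples deviated in a shared way over most of the genes. Mettl3-CKO 1 and Mettl3-CKO 3 were the highest or second highest of their group for *Dnajb1*, *Hspa8*, *Hsp90aa1*, *Hspa5*, *Hspd1* and *Hspe1*. For the same 6 genes Control 1 was the highest control. The mitochondrial share of counts was highest in the same 3 samples, at 2.10%, 2.26% and 2.38%, against 1.69% to 1.87% in the other 5, and its part in the chaperone values was not tested. *Hsph1* and *Hsp90ab1* did not show this order, and Control 1 lay among the other controls for both.

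**Figure D4:**
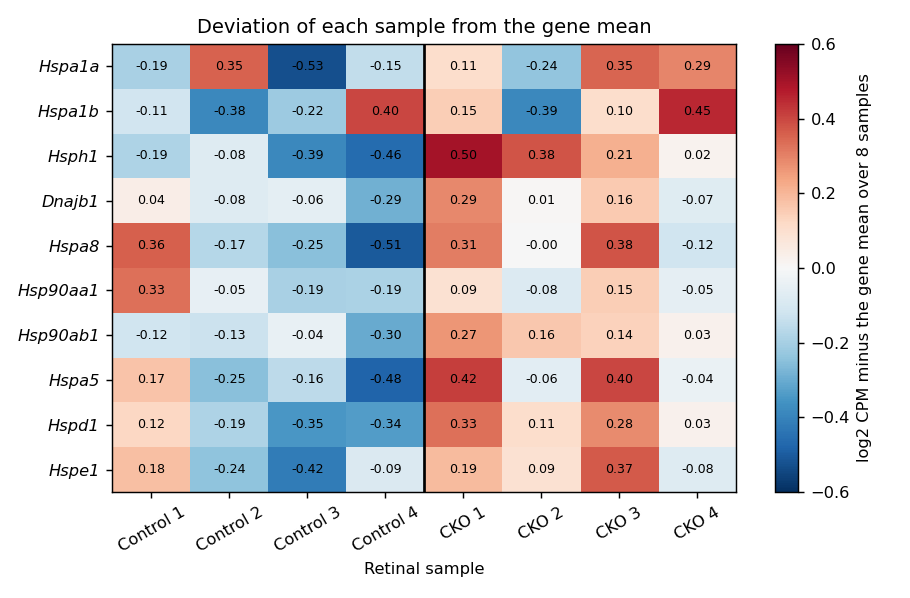
Log2 CPM of each chaperone gene in each sample minus the mean of that gene over the 8 samples, with controls left of the black line and Mettl3-CKO (CKO) samples right of it. Control 1, CKO 1 and CKO 3 are above the mean for Dnajb1, Hspa8, Hsp90aa1, Hspa5, Hspd1 and Hspe1, and Hsph1 runs from 0.02 to 0.50 in CKO and from -0.46 to -0.08 in controls.

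To place the 10 genes, 160 other tested genes of 11 lists were read from the same fit. The lists cover heat shock factors, chaperones and co-chaperones, organelle folding, 25 proteasome genes and 14 tested immediate early genes. Of the 160, 9 were called higher (5.62%, against 6.49% of all genes) and 8 lower. The median log2 fold change of the 160 was -0.06, against 0.27 for the 10 chaperone genes. Among the lists, the median was -0.05 for proteasome genes and -0.32 for immediate early genes. Of 6 genes for heat shock factors and their brakes, 0 were called by edgeR in either direction, 0 at an unadjusted p under 0.05 and 0 by DESeq2 or limma voom. *Hsf1* encodes the factor that drives the heat shock response, and its mean was 40.7 ± 2.94 CPM (SD, n = 4) with *Mettl3* deleted and 44.6 ± 5.07 CPM in controls, a log2 fold change of -0.13 (adjusted p = 0.470, edgeR). Among 17 other HSF1 targets 2 were higher, the HSP40 gene *Dnajb4* (0.52, adjusted p = 0.00563, edgeR) and the collagen chaperone gene *Serpinh1* (0.39, adjusted p = 0.0357). *Dnaja4* (-0.50, adjusted p = 0.0329) and the small heat shock gene *Cryab* (-3.66, adjusted p = 0.0419) were lower. *Cryab* is also a lens gene and stood at 71.9 CPM in Control 4 and at 1.04 to 6.05 CPM in the other 7 samples, and without Control 4 it did not pass (adjusted p = 0.1597, edgeR).

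Among 25 HSP70 nucleotide exchange factors and HSP40 co-chaperones 5 were called higher (*Bag2*, *Bag5*, *Bag4*, *Dnajb4* and *Dnajc9*) and 1 lower (*Dnaja4*), and the median log2 fold change was -0.01. *Bag2*, which encodes an inhibitor of the ubiquitin ligase CHIP that binds HSP70, was at 19.5, 12.9, 15.3 and 14.02 CPM in Mettl3-CKO 1 to 4 and at 8.19, 7.72, 7.24 and 6.41 CPM in Control 1 to 4. All *Mettl3*-CKO samples lay above all controls, and the log2 fold change of 1.06 ± 0.15 (SE, adjusted p = 0.00127, edgeR) is larger than that of any of the 10 chaperone genes. *Bag5*, an exchange factor with several BAG domains, was at 97.9, 70.6, 82.2 and 77.3 CPM in Mettl3-CKO 1 to 4 and at 56.2, 44.3, 43.9 and 48.2 CPM in Control 1 to 4. It too was without overlap, at a log2 fold change of 0.77 ± 0.12 (SE, adjusted p = 0.00201, edgeR). *Dnajc9*, which encodes a histone chaperone linked to HSP70, was higher by 0.51 (adjusted p = 0.00752). *Bag2*, *Bag5*, *Dnajb4* and *Dnajc9* were called in each of 8 fits that left out 1 sample, and *Bag4* (0.28) in 2 of them. *Serpinh1*, *Dnaja4* and *Cryab* were each called in 3 of the 8.

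After these values had been seen, genes of families that hold HSP70 exchange factors were set side by side, so the grouping carries no test. Whether each of them, *Bag6* included, acts as an exchange factor was not tested. Of 14 genes, *Hsph1* included, 5 were called higher and 0 lower by edgeR (6.49% and 4.05% of all genes), with 2 lower at an unadjusted p under 0.05, 0 by DESeq2 and 1 by limma voom. The median log2 fold change of the 14 was 0.12. The 5 act in the cytosol or in mitochondria, where *Grpel2* encodes an exchange factor for mitochondrial HSP70 (0.50 ± 0.10 (SE), adjusted p = 0.00875, edgeR). The other HSP110 genes did not follow *Hsph1*, with -0.02 for *Hspa4* (adjusted p = 0.922), -0.21 for *Hspa4l* (adjusted p = 0.132) and -0.04 for *Hyou1* (adjusted p = 0.861). *Bag3*, the HSF1-driven BAG gene, was at -0.14 (adjusted p = 0.826) and *Bag1* at -0.05 (adjusted p = 0.847). The lowest of the 14 was *Bag6*, at -0.26 (unadjusted p = 0.0187, adjusted p = 0.111, edgeR).

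**Figure D5:**
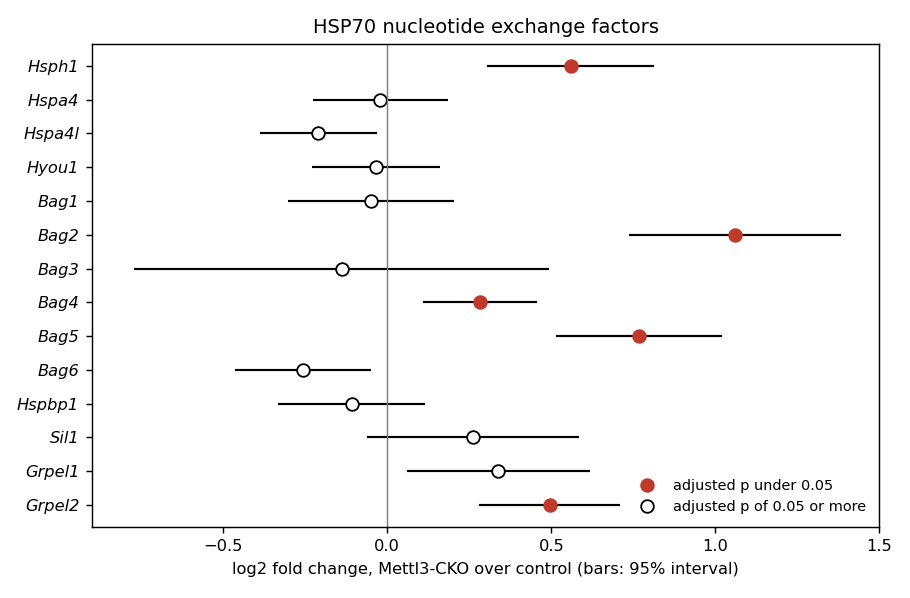
Fitted log2 fold change, Mettl3-CKO over control, of 14 genes of families that hold HSP70 nucleotide exchange factors. Bars are the 95% interval from edgeR and filled points have an adjusted p under 0.05. The filled points are Hsph1, Bag2, Bag4, Bag5 and Grpel2, from 0.28 to 1.06, while Hspa4, Hspa4l, Hyou1, Bag1, Bag3, Bag6 and Hspbp1 lie below 0, Bag6 lowest at -0.26.

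Other compartments showed few calls in edgeR. Among 10 other HSP70 and HSP110 genes *Hspa13* was higher (0.44, adjusted p = 0.0339, edgeR), and among 14 mitochondrial chaperones and proteases *Grpel2* was. The mitochondrial HSP70 gene *Hspa9*, which feeds the HSP60 chaperonin, was at 0.05 (adjusted p = 0.808). Among 25 genes of endoplasmic reticulum folding and the unfolded protein response, *Manf* was higher (0.37, adjusted p = 0.0352) and the sensor gene *Atf6* lower (-0.32, adjusted p = 0.0405), while *Hsp90b1*, the HSP90 of that compartment, was at -0.00 (adjusted p = 0.998). *Pih1d1* was the 1 of 20 HSP90 co-chaperones called, lower by -0.34 (adjusted p = 0.0345), and *Pfdn6* the 1 of 14 TRiC and prefoldin subunits, lower by -0.30 (adjusted p = 0.0449). Of these, *Hspa13* and *Manf* were called in 2 of the 8 fits that left out 1 sample, *Pih1d1* in 3, and *Atf6* and *Pfdn6* in 1. Of the 20 HSP90 co-chaperones, 4 were lower and 0 higher at an unadjusted p under 0.05 in edgeR. DESeq2 called 3 of them lower and 0 higher, and limma voom 3 lower and 1 higher. Of the 25 endoplasmic reticulum genes, 3 were higher and 2 lower at an unadjusted p under 0.05. DESeq2 called 1 of these 25 in each direction, and limma voom 5 higher and 2 lower.

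Proteasome and immediate early genes, which cells raise in proteotoxic stress or on tissue handling, were also read. Neither stress nor handling was tested. Of 25 proteasome genes 0 were called by edgeR, 0 at an unadjusted p under 0.05, 0 by DESeq2 and 1 by limma voom, and 4 of the 25 had a fitted change above 0. Of 14 tested immediate early genes 2 were lower, *Junb* (-0.60, adjusted p = 0.0272, edgeR) and *Nr4a1* (-0.55, adjusted p = 0.0116), and 0 were higher, by limma voom, DESeq2 or an unadjusted p under 0.05 as well. At an unadjusted p under 0.05 in edgeR 5 of the 14 were lower, and DESeq2 and limma voom each called 3 lower. The median log2 fold change of the 14 was -0.32, and 1 of them had a fitted change above 0. *Nr4a1* was called in 7 of the 8 fits that left out 1 sample and *Junb* in 3. Of 6 tested small heat shock genes *Cryaa* and *Cryab* were lower and 0 higher in edgeR, and neither DESeq2 nor limma voom called any. At an unadjusted p under 0.05 in edgeR, 4 of the 6 were lower and 0 higher. *Cryaa* was at 1168 CPM in Control 4 and at 0 to 23.0 CPM elsewhere, and did not pass without Control 4 (adjusted p = 0.399, edgeR).

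The genes whose pattern over the 8 samples was most like that of the chaperone set were found among 14307 genes by Pearson's r with the mean standardised log2 CPM of the 10 genes. They were *Zfp961* (r = 0.988), *Pdia3* (r = 0.987), *Amer3* (r = 0.985), *Rnf34* (r = 0.983) and *Trim13* (r = 0.982). The r values are a description over 8 samples that share libraries. *Pdia3*, a disulphide isomerase gene of the endoplasmic reticulum, was at 334, 269, 317 and 277 CPM in Mettl3-CKO 1 to 4 and at 294, 245, 229.6 and 213 CPM in Control 1 to 4, with Control 1 again above the other controls.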

How the data were processed

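The retinal RNA of 4 *Mettl3*-CKO and 4 control samples was sequenced in bulk. The deposited table holds raw counts of reads for each gene, which the authors made by filtering paired-end reads, mapping them to GRCm38 (mm10) with HISAT2 and counting with featureCounts. The annotation release and the strand setting are not given in the sources used here. All 10 chaperone genes have the coordinates of GENCODE vM21. Members and gene lists were chosen with earlier results of these data known.

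Counts were tested with edgeR 4.0.16 in R 4.3.3 (filterByExpr, TMM, glmQLFit and glmQLFTest, Benjamini-Hochberg adjustment over 17998 genes, threshold 0.05), with no covariate. SE is the absolute log2 fold change divided by the square root of F. Alternatives were DESeq2 1.42.0, limma 3.58.1 voom with sample quality weights, RLE factors, library totals, no filter, a replicate block, a threshold of 0.01, *Hspa1a* and *Hspa1b* summed, each sample left out and, added after the data were seen, Control 1 and Control 4 both left out. FPKM was computed from counts, gene length and total counts. For ratios and sums, exact permutation tests over samples (two-sided) were used.

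Total counts ranged from 16227095 to 20281517, so 3 counts equal 0.148 to 0.185 CPM. No pair of samples agreed within sampling noise, with a lowest chi-square of 5.46 per gene. Named genes are the 10 members, up to 4 genes of smallest p per pathway list, their partners (*Hsf1*, *Hspa9*, *Hsp90b1*) and the 5 genes most like the set. Exchange factors outside this rule and cell type markers were named after their values were seen. Promoter windows (250 bases upstream) are from the RefSeq table on GRCm38.p6.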

Additional observations from a re-analysis of the deposited data

How the results depend on the processing

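*Hsph1* kept its direction in every fit and missed the threshold only without Mettl3-CKO 1. Of the 10 chaperone genes, 1 was called higher with all samples, 3 by DESeq2, 6 by voom, 3 with library totals, 3 with no filter, 4 with the replicate block (6.66% of all genes), 3 without both Control 1 and Control 4, and 0 at a threshold of 0.01 (2.44% of all genes), and leaving out 1 sample gave 0 (without Mettl3-CKO 1, 2.78% of all genes) to 6 (without Control 1, 10.3%). With 1 sample left out, *Hsp90aa1* ranged from -0.0194 (without Control 4, and -0.0133 without Control 3) to 0.17, and the log2 ratio difference of *Hspa1a* and *Hspa1b* to *Hspa8* from -0.29 to 0.11 (without Control 4). Of the 160 other genes of the lists 9 were higher and 8 lower, against 17 and 13 by voom. When 1 sample was left out, 5 to 17 were higher and 0 to 16 lower. The lower count was 5 with the replicate block and 4 without both controls. Over all genes 1168 were higher and 729 lower, against 2142 and 1568 by voom, 439 and 147 at a threshold of 0.01, and 509 to 1882 higher and 185 to 1289 lower when 1 sample was left out. The causes were not tested. Whether replicate numbers pair the samples is not known. Same-numbered samples correlated at -0.111, 0.215, -0.114 and 0.249 in their deviations from the group means, against -0.227 to 0.264 for other pairs. These overlapping values cannot decide a pairing, so the block is given only for completeness. Depth limits *Hspa1a* and *Hspa1b*, at 38 to 123 counts per sample.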
